A study of Gallus gallus with 24 samples.

Results

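Explants of chick retinal pigment epithelium (RPE) kept for 24 h with fibroblast growth factor 2 (FGF2) were compared with explants kept for 24 h without it. The comparison takes 6 of the 24 libraries of the series and all genes with a mean of at least 10 normalized read counts over the 24 libraries, which are 15001 of 24356 gene rows. Of these, 11469 carry a gene symbol. The FGF2 group received FGF2 at 10 ng/ml in culture medium and has 3 libraries, and the control group was kept in the maintenance medium alone and has 3 libraries. Both groups came from RPE of chickens raised free of specific pathogens, taken at day 4 of embryonic development, and each library is a biological replicate of 3 explants pooled together. The response to FGF2 was then looked up in libraries that share none with these 6. One such pair had dichloroacetate (DCA) at 20 mM throughout, with and without FGF2 at 10 ng/ml for 24 h, and the other pair was FGF2 at 10 ng/ml and maintenance medium alone at 48 h, with 3 libraries in each group. DCA inhibits the kinases that switch off pyruvate dehydrogenase.

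The RPE is the pigmented cell sheet behind the neural retina, which it nourishes and with which it shares an origin in the optic vesicle. FGF2 binds receptor tyrosine kinases of the FGFR family, which signal through RAS and the kinases RAF, MEK and ERK, and ERK signalling switches on its own inhibitors of the Sprouty and DUSP families. In the early chick embryo, RPE exposed to FGF2 can lose its pigment, divide and form neural retina, a capacity that is lost with age. The transcription factors OTX2 and MITF hold the RPE fate, whereas SIX6, SOX2 and RAX mark retinal progenitor cells.

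The 6 libraries held 33933499 to 69011298 reads, recovered from the deposited values. The third FGF2 replicate was the deepest at 69011298 reads, and the other 5 held at most 37521369. Between 16166 and 17273 genes were above 0 in a library. Replicates correlated at Pearson r = 0.9665 to 0.9732 over the genes tested, and FGF2 libraries correlated with control libraries at 0.9268 to 0.9409. RPE marker genes were present in every library. The summed level of 24 of them ran from 219285 to 300538 normalized counts with FGF2, against 272457 to 306827 in control. Of the 23 that were tested, 8 were lower and 2 higher, with a median log2 fold change of -0.27, and 5 were lower without the first FGF2 replicate and 1 was higher in each fit that left out 1 library. Markers of other cells that an explant can carry were found in every library, and several of these lists moved with the treatment. Of 16 lens and surface ectoderm markers 2 were higher and 2 lower, and of 18 muscle markers 3 were higher and 6 lower. Of 28 periocular mesenchyme markers tested, 19 were lower and 2 higher with FGF2. Of 20 endothelial markers 15 were lower and 5 did not pass the test, and of 24 blood and macrophage markers 14 were lower and 10 did not pass, with 9 lower without the first FGF2 replicate. The shares over all genes tested were 14.3% lower and 15.5% higher. Of 22 neural retina neuron markers 9 were higher and 4 lower, with a median log2 fold change of 0.79. They summed to 26165 to 28336 with FGF2 and to 25759 to 29638 in control, with POU4F1 at 0 throughout. Their part in the results was not tested, and in such bulk libraries fewer cells of a type and less RNA per cell cannot be told apart.

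FGF2 changed a large share of the genes. With limma at an adjusted p under 0.05, 4466 of 15001 genes were called (29.8%), 2322 higher (15.5%) and 2144 lower (14.3%) with FGF2, while the median log2 fold change over all genes was -0.01. A change of at least 2-fold was called for 779 genes higher and 704 lower (5.19% and 4.69% of the genes tested), and at least 8-fold for 188 higher and 82 lower. The 3 FGF2 values and the 3 control values did not overlap for 6718 genes (44.8%). Most genes named below were chosen for a small adjusted p or a large change, so a lack of overlap in them is no further support. Levels are normalized read counts, and a log2 fold change is the difference of mean log2(normalized count + 1) with its standard error from limma.

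**Figure D1:**
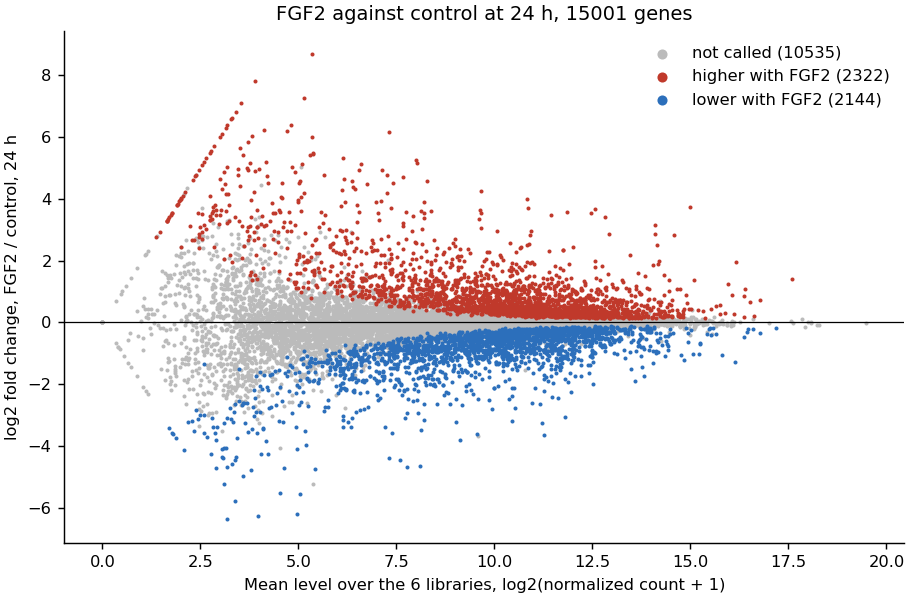
Each point is 1 of 15001 genes, with its mean level over the 6 libraries on the x axis (log2 of normalized count + 1) and the log2 fold change of FGF2 against control at 24 h on the y axis. Red points were called higher (2322) and blue points lower (2144) by limma, grey points were not called, and the largest changes in each direction reach past 16-fold.

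The 15 largest changes in each direction were ranked among called genes with a symbol. These genes had no overlap between the groups and a mean of at least 100 normalized counts over the 6 libraries. Genes of lower mean were left out of the ranking, among them FEZF2 (log2 fold change 7.09) and HHIP (-5.77). The largest rises so ranked included NOS1, PAX2 and SOX3. NOS1 (ENSGALG00000008177), the neuronal nitric oxide synthase, read 912, 787 and 775 with FGF2, against 0, 0 and 7.33 in control. It was close to absent without FGF2 and well detected in each FGF2 library, a log2 fold change of 8.67 ± 0.85 (limma adjusted p = 9.4e-08, and 9.69 without the third control replicate). PAX2 (ENSGALG00000005689), which patterns the optic stalk and ventral optic cup, read 399, 263 and 106 with FGF2, against 0, 0 and 28.3 in control (6.18 ± 1.06, adjusted p = 0.00011, and 7.81 without the third control replicate). SOX3 (ENSGALG00000054923), a transcription factor of neural progenitors related to SOX2, read 666, 455 and 597 with FGF2, against 17.1, 24.9 and 8.38 in control (5.11 ± 0.39, adjusted p = 2.7e-09). For each of these 3 genes the lowest FGF2 library was several times the highest control library, where a lack of overlap was a condition for the largest changes named.

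Among the other of the 15 largest rises, NINJ2 (ENSGALG00000012989), a membrane protein of injured nerve, read 1638, 1698 and 1396 with FGF2, against 49.1, 44.6 and 29.3 in control (5.26 ± 0.32, limma adjusted p = 7.6e-11). CALB1 (ENSGALG00000032282), the calcium-binding protein calbindin of retinal interneurons, read 269.9, 172 and 172 with FGF2, against 11.7, 0 and 13.6 in control (5.14 ± 1.08, adjusted p = 0.00087, and 3.88 without the second control replicate). GAL3ST1 (ENSGALG00000007781), which makes the glycolipid sulfatide, read 694, 955 and 771 with FGF2, against 28.8, 30.1 and 27.2 in control (4.75 ± 0.61, adjusted p = 3.7e-06). In all 3 genes the lowest FGF2 library stood far above the highest control library. STMN2, AvBD5, FGF1, GRP, CHRNA3, CNTN2, PSD2, ACAN and TBX21 complete the 15.

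By the same ranking, the largest falls included GUCA1A, PDC and LMX1A. GUCA1A (ENSGALG00000001431), which activates the guanylate cyclase of photoreceptors, read 0, 9.42 and 3.50 with FGF2, against 189, 375 and 264 in control (-6.21 ± 0.59, limma adjusted p = 6.4e-08, and -5.28 without the first FGF2 replicate). PDC (ENSGALG00000030417), phosducin, which binds G protein subunits in photoreceptors and the pineal gland, read 28.8, 28.3 and 46.1 with FGF2, against 571, 662 and 982 in control (-4.38 ± 0.34, adjusted p = 2.9e-09). LMX1A (ENSGALG00000003424), a LIM homeobox factor of dorsal midline and ciliary tissue, read 18.1, 119 and 72.9 with FGF2, against 1218, 1206 and 1804 in control (-4.64 ± 0.51, adjusted p = 4.4e-07, and -3.88 without the first FGF2 replicate). All 3 were well expressed in every control library and were reduced to a small remainder in every FGF2 library. NPBWR1, GSG1L2, SLC35F3, WNT2B, PALMD, NTRK3, LRFN2, GLP2R, PLXNA4, GJD2, BMP6 and BNC1 make up the other 12 of the 15 largest falls so ranked.

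Of the called genes, 44 were at 0 in all 3 libraries of 1 group, and 27 of them carry a symbol, 25 at 0 in control and 2 at 0 with FGF2. For these genes a fold is given as a lower bound, set against 3 reads over the 3 libraries of the empty group. STMN2 (ENSGALG00000039690), a microtubule-destabilizing protein of growing axons, read 352, 152 and 203 with FGF2, against 0, 0 and 0 in control, at least 224-fold higher with FGF2. FEZF2 (ENSGALG00000007184), a forebrain transcription factor, read 256, 84.8 and 114 with FGF2, against 0, 0 and 0 in control, at least 144-fold higher. SHC3 (ENSGALG00000010688), an adaptor of receptor tyrosine kinases in neurons, read 118, 67.1 and 115 with FGF2, against 0, 0 and 0 in control, at least 95.3-fold higher. No control library held a read of these 3 genes. Also among the 25 were LYPD6, which modulates nicotinic receptors, at least 82.7-fold higher, the homeobox factor HMX3, at least 44.3-fold higher, the ligand FGF9, at least 16.8-fold higher, and the POU factor POU3F4, at least 14.8-fold higher. In the other direction, CNTN6, a neuronal adhesion protein, and PCSK4, a proprotein convertase, were at 0 in every FGF2 library, each at least 13.4-fold lower with FGF2.

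The FGF pathway's own inhibitors rose. Of 16 ERK feedback inhibitors tested, 10 were higher and 6 did not pass the test, with a median log2 fold change of 0.61. Without the third FGF2 replicate 2 of them were lower. SPRY4 (ENSGALG00000033012), a Sprouty protein that blocks RAS activation, read 657, 1031 and 1252 with FGF2, against 115, 59.1 and 110.0 in control (3.37 ± 0.31, limma adjusted p = 3.3e-08). DUSP1 (ENSGALG00000040360), a nuclear phosphatase of MAP kinases, read 2259, 2881 and 2575 with FGF2, against 797, 753 and 681 in control (1.78 ± 0.13, adjusted p = 7.9e-10). SPRY2 (ENSGALG00000016906) read 2254, 2293 and 2673 with FGF2, against 922, 1017 and 911 in control (1.337 ± 0.13, adjusted p = 6.4e-08). The groups did not overlap for any of the 3. DUSP7, DUSP8 and DUSP10 had log2 fold changes of -0.39 ± 0.16, -0.46 ± 0.18 and -0.34 ± 0.17 and did not pass the test. In a fit of the 6 libraries alone 3 inhibitors were called lower, and quantile normalization, a replicate block and DESeq2 each called 1 lower.

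FGF ligands and receptors moved both ways. Of 21 tested, 9 were higher and 3 lower. FGFR1 (ENSGALG00000039786) read 35331, 36951 and 35909.8 with FGF2, against 13954, 14312 and 13642 in control (1.37 ± 0.07, limma adjusted p = 4.9e-12). FGFR4 (ENSGALG00000028543) read 2626, 2933 and 2818 with FGF2, against 1017, 1403 and 1437 in control (1.13 ± 0.16, adjusted p = 1.2e-05). FGFR3 (ENSGALG00000015708) went the other way and read 1695, 1863 and 1576 with FGF2, against 4539.9, 4547 and 4332 in control (-1.39 ± 0.19, adjusted p = 6.7e-06), while FGFR2 gave -0.09 ± 0.14 (adjusted p = 0.68). Thus 2 receptors were higher in every FGF2 library, 1 was lower in every FGF2 library and FGFR2 overlapped between the groups. Among ligands, FGF1 (ENSGALG00000031255) read 237, 280.3 and 251 with FGF2, against 0, 27.0 and 0 in control (6.40 ± 1.32, adjusted p = 0.0007, and 8.002 without the second control replicate). FGF13 (ENSGALG00000006508), an intracellular FGF homologue that binds sodium channels, read 588, 866 and 549 with FGF2, against 55.5, 25.9 and 30.4 in control (4.17 ± 0.36, adjusted p = 1.5e-08). FGF12, a close relative of FGF13, fell by 1.37 ± 0.18 on the log2 scale (adjusted p = 3.4e-06). The explants' own FGF2 gene read 68.3, 67.1 and 73.5 with FGF2, against 132, 58.1 and 159 in control and did not pass the test (-0.61 ± 0.30, adjusted p = 0.13). FGF19 (ENSGALG00000028376) had 3 reads in all over the control libraries and read 99.2, 24.7 and 23.3 with FGF2, against 0, 3.11 and 0 in control, a ratio of 41.9 (95% interval 14.1 to 205), where the interval covers counting error only.

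Downstream of the receptors, transcription factors moved both ways. Of 21 ETS and immediate-early factors, 4 were higher and 7 lower, and 4 were lower without the first FGF2 replicate. These shares of 19.0% and 33.3% compare with 15.5% higher and 14.3% lower over all genes. The PEA3 factor ETV4 (ENSGALG00000036678) read 5804, 6244 and 5849 with FGF2, against 1590.2, 1924 and 1842 in control (1.74 ± 0.11, limma adjusted p = 2.1e-10). The orphan nuclear receptor NR4A1 (ENSGALG00000043727) read 197, 297 and 227 with FGF2, against 72.6, 117 and 63.9 in control (1.53 ± 0.39, adjusted p = 0.0046). ETS1 (ENSGALG00000001143) read 1073, 1485 and 1156 with FGF2, against 2791, 3008 and 2929 in control (-1.25 ± 0.14, adjusted p = 8.2e-07). The AP-1 factor JUN (ENSGALG00000010870) fell by 0.62 ± 0.12 on the log2 scale (adjusted p = 0.00026). EGR1, an immediate-early gene of ERK signalling, had 2191 ± 337 with FGF2 and 2374 ± 86.1 in control (mean ± SD, n = 3 each) and a log2 fold change of -0.13 ± 0.11 (adjusted p = 0.45). Of 34 genes of the MAP kinase, PI3K and JAK-STAT cascades, 8 were lower. The kinase MAP2K1, named after its value was seen, was the 1 member called higher (0.18 ± 0.06, adjusted p = 0.024), a call that was lost without the first or the third control replicate, without the first or the third FGF2 replicate and in a fit of the 6 libraries alone (adjusted p = 0.11 without the third FGF2 replicate). The cytokine signalling inhibitors SOCS2 (-1.80 ± 0.17) and SOCS3 (-1.21 ± 0.24) and the transcription factor STAT3 (-0.44 ± 0.08) were among those that fell (adjusted p = 0.00043 or less).

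Most retinal progenitor factors rose. Of 32 eye-field and retinal progenitor factors, 18 were higher and 7 lower, with a median log2 fold change of 0.65, and 4 were lower without the second control replicate. SIX6, a homeobox factor of retinal progenitors, had the smallest adjusted p of the list and read 24151, 24789 and 22717 with FGF2, against 2255, 2176 and 2243 in control. ZIC1 (ENSGALG00000040532), a zinc finger factor of neural and retinal progenitors, read 1180.1, 637 and 731 with FGF2, against 29.9, 31.1 and 45.05 in control (4.52 ± 0.34, limma adjusted p = 2e-09). Its relative ZIC2 (ENSGALG00000041083) read 658, 453 and 302 with FGF2, against 17.1, 45.6 and 67.0 in control (3.54 ± 0.40, adjusted p = 6.3e-07). For both ZIC genes, every FGF2 library lay far above every control library. RAX2 (ENSGALG00000013431) read 2077, 1955 and 1882 with FGF2, against 806, 754 and 814 in control (1.32 ± 0.16, adjusted p = 1.9e-06). RAX (ENSGALG00000033279) read 1825, 1718 and 1335 with FGF2, against 810.0, 624 and 646 in control (1.23 ± 0.25, adjusted p = 0.00078). For both homeobox genes every FGF2 library stood above every control library. SIX3 also rose, by 0.73 ± 0.12 on the log2 scale (adjusted p = 4.1e-05). Not all members rose. NR2E3 (ENSGALG00000002093), a nuclear receptor of photoreceptors, read 103, 115 and 88.0 with FGF2, against 462, 511 and 416 in control (-2.17 ± 0.24, adjusted p = 4.3e-07), and MEIS2, NR2E1 and TBX3 did not pass the test.

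**Figure D2:**
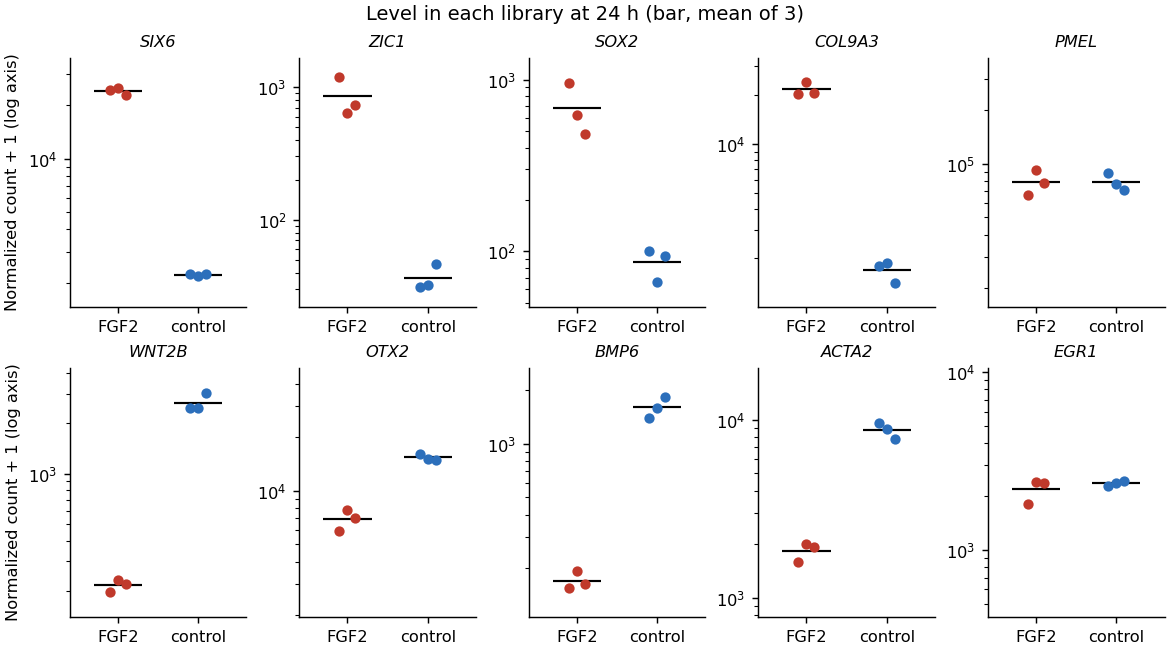
Each panel shows 1 gene, with the normalized counts of the 3 FGF2 libraries at the left and of the 3 control libraries at the right on a log axis (count + 1), and a bar at the mean of each group. The eye-field genes SIX6, ZIC1 and SOX2 and the matrix gene COL9A3 lie higher with FGF2, WNT2B, OTX2, BMP6 and ACTA2 lie lower, and PMEL and EGR1 overlap between the groups.

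The list of RPE fate regulators was divided. Of 16 tested, 4 were higher and 7 lower. The list also holds the optic stalk factor PAX2, which had its largest rise, a log2 fold change of 6.18. WNT2B (ENSGALG00000034196), a WNT ligand of dorsal RPE and ciliary margin, read 195, 231 and 219.8 with FGF2, against 2458, 2458 and 3041 in control (-3.61 ± 0.30, limma adjusted p = 7e-09). OTX2 read 5948, 7797 and 7061 with FGF2, against 16101, 15180.5 and 14996 in control (-1.16 ± 0.08, adjusted p = 4.4e-10). BHLHE40 (ENSGALG00000008308), a basic helix-loop-helix repressor, read 3239, 3537 and 3220.2 with FGF2, against 9444, 7587 and 9085 in control (-1.38 ± 0.15, adjusted p = 4e-07). The 3 genes were lower in every FGF2 library than in any control library. MITF, the master factor of pigment cells, went the other way and read 1054, 942 and 1073 with FGF2, against 853, 715 and 874 in control (0.33 ± 0.12, adjusted p = 0.042). That call was lost without the first or the second control replicate and without the first or the third FGF2 replicate. It was also lost with upper-quartile scaling, a replicate block, no filter on low values and in a fit of the 6 libraries alone (adjusted p = 0.051 to 0.20 over these fits). VAX1 (ENSGALG00000009261), a ventral optic stalk factor like PAX2, read 764, 575 and 579 with FGF2, against 275, 277 and 283 in control (1.18 ± 0.15, adjusted p = 2.4e-06).

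Most pigment genes did not pass the test at 24 h. Of 27 melanin and melanosome genes, 9 were lower and 18 did not pass, with a median of -0.25. PMEL, which forms the fibrils of the melanosome, read 67000.0, 92249 and 78309.6 with FGF2, against 88425, 76760.1 and 71121 in control, and TYRP1 and DCT, enzymes of melanin synthesis, had log2 fold changes of 0.39 ± 0.26 and -0.40 ± 0.19 (adjusted p = 0.29 and 0.13). The ranges of PMEL and TYRP1 overlapped between the groups. TRPM1 (ENSGALG00000003849), an ion channel of pigment cells, read 7928, 9416 and 9953 with FGF2, against 18188, 16563 and 16703 in control (-0.92 ± 0.14, adjusted p = 2.3e-05). GPNMB (ENSGALG00000010949), a melanosome glycoprotein, read 12610.4, 11831 and 13344 with FGF2, against 29405, 22874 and 22872 in control (-0.98 ± 0.15, adjusted p = 3.1e-05). RAB38 (ENSGALG00000028018), which carries cargo to melanosomes, read 127, 252 and 207 with FGF2, against 466, 411 and 465 in control (-1.24 ± 0.24, adjusted p = 0.00042). These 3 were lower in every FGF2 library.

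Genes that handle retinoids fell more often than they rose. Of 19 visual cycle and retinoid genes, 3 were higher and 8 lower, and 5 were lower without the first FGF2 replicate. The share higher was 15.8%, near the 15.5% of all genes, and the share lower was 42.1% against 14.3%. RBP4 (ENSGALG00000015374), the retinol carrier, read 2001, 2778 and 2504 with FGF2, against 402, 505 and 712 in control (2.19 ± 0.23, limma adjusted p = 2.4e-07). STRA6 (ENSGALG00000001449), the receptor that takes retinol from that carrier, read 17798, 27291 and 28937 with FGF2, against 46989, 52729 and 48833 in control (-1.04 ± 0.21, adjusted p = 0.00058). ABCA4 (ENSGALG00000005752), a retinoid flippase, read 186, 117 and 214 with FGF2, against 693, 609 and 483 in control (-1.81 ± 0.24, adjusted p = 4.7e-06). The carrier was higher and the receptor lower in every FGF2 library. RPE65, the isomerase of the visual cycle, had 846 ± 127 with FGF2 and 623 ± 149.6 in control (mean ± SD, n = 3 each) and did not pass the test (0.46 ± 0.37, adjusted p = 0.39), nor did RGR, RDH5 and BEST1.

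Enzymes that make retinoic acid moved in opposite directions. ALDH1A3 (ENSGALG00000033365), the retinaldehyde dehydrogenase of the ventral retina, read 77341, 56665 and 62769 with FGF2, against 12468, 7954 and 7917 in control (2.82 ± 0.22, limma adjusted p = 2.6e-09). RDH10 (ENSGALG00000034346), which makes the retinaldehyde that such enzymes use, read 5873, 7366 and 5984 with FGF2, against 26861, 22771 and 22539 in control (-1.91 ± 0.13, adjusted p = 6.7e-10). ALDH1A2 (ENSGALG00000004270), the dehydrogenase of mesenchyme and other tissues, read 1892, 2509.8 and 2311 with FGF2, against 7336, 7758 and 5699.8 in control (-1.63 ± 0.15, adjusted p = 4.4e-08). Every FGF2 library was above every control library for ALDH1A3 and below every control library for RDH10 and ALDH1A2. Over the 16 retinoic acid genes, 3 were higher and 8 lower with a median of -0.61, and RARB, a receptor that retinoic acid induces, read 1525, 1497 and 1559.7 with FGF2, against 2424, 2918 and 2749 in control (-0.82 ± 0.10, adjusted p = 2.7e-06). ALDH1A1 read 687, 0 and 12.2 with FGF2, against 0, 3.11 and 0 in control, so 1 of the FGF2 libraries held most of its counts, and it did not pass the test (adjusted p = 0.18).

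Neuronal fate factors moved in both directions equally often. Of 43 proneural and neuronal fate factors, 9 were higher and 9 lower, with a median of -0.12. These shares of 20.9% each compare with 15.5% higher and 14.3% lower over all genes. FOXN4, which commits retinal progenitors to amacrine and horizontal cells, read 480.1, 478 and 492 with FGF2, against 38.4, 25.9 and 32.5 in control (3.88 ± 0.31, limma adjusted p = 5e-09). PROX1 (ENSGALG00000009791), a factor of horizontal cells, read 292, 337 and 349 with FGF2, against 109, 162 and 111 in control (1.37 ± 0.19, adjusted p = 1.2e-05), and ATOH7, needed for ganglion cells, read 933, 1109 and 654 with FGF2, against 374, 472 and 424 in control (1.06 ± 0.29, adjusted p = 0.0079). These 3 were higher in every FGF2 library. NEUROD1 (ENSGALG00000008908), a factor of photoreceptors and amacrine cells, read 3797, 5219 and 3939.7 with FGF2, against 7177, 9032 and 9066 in control (-0.97 ± 0.15, adjusted p = 4.6e-05). It was lower in every FGF2 library.

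Genes of the Notch pathway, which keeps progenitors undifferentiated, were lower more often than higher, with 8 of 36 genes higher and 13 lower. These shares of 22.2% and 36.1% compare with 15.5% higher and 14.3% lower over all genes, and the median was -0.05. The ligand JAG1 (ENSGALG00000009020) read 1054, 1503 and 1222 with FGF2, against 2519.7, 2903 and 2811 in control (-1.14 ± 0.17, limma adjusted p = 1.6e-05). The receptor NOTCH2 (ENSGALG00000002922) read 10006, 10798 and 9924 with FGF2, against 17248, 17143 and 17043 in control (-0.74 ± 0.08, adjusted p = 1.8e-07). The target gene HEYL (ENSGALG00000034986) read 1577, 2134 and 1483 with FGF2, against 3441, 4002 and 4352 in control (-1.19 ± 0.13, adjusted p = 4.9e-07). A ligand, a receptor and a target thus fell together. The ligand DLL1 rose by 0.66 ± 0.18 on the log2 scale (adjusted p = 0.0070). ID4 (ENSGALG00000039474), an inhibitor of basic helix-loop-helix factors counted with this list, read 2712, 2665 and 2606 with FGF2, against 1128, 822 and 743 in control (1.59 ± 0.11, adjusted p = 9.8e-10). HES5, a target of Notch in the retina, read 242, 127 and 169 with FGF2, against 133, 78.8 and 110.0 in control and did not pass (0.72 ± 0.34, adjusted p = 0.12), and NOTCH1 had -0.20 ± 0.11 (adjusted p = 0.18).

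Genes of young neurons rose more often than they fell. Of 41 genes of the neuronal cytoskeleton and of neuronal RNA-binding proteins, 15 were higher and 7 lower, and 4 were lower without the third control replicate. DCX, a microtubule protein of migrating neurons, read 892, 542 and 671 with FGF2, against 131, 111 and 113 in control (2.53 ± 0.22, limma adjusted p = 1.9e-08). The adhesion protein CHL1 (ENSGALG00000037856) read 1603, 2303 and 1505 with FGF2, against 3657, 5677 and 6354 in control (-1.52 ± 0.23, adjusted p = 2.6e-05). The dendritic protein MAP2 (ENSGALG00000002789) read 1129.9, 1233 and 1064 with FGF2, against 1664, 1861 and 2178 in control (-0.73 ± 0.11, adjusted p = 1.9e-05). DCX was higher, and CHL1 and MAP2 lower, in every FGF2 library. Synaptic genes had 16 higher and 10 lower of 55 tested, and 6 lower without the second control replicate. The nicotinic receptor subunit CHRNA3 (ENSGALG00000003014) read 269, 284 and 260.0 with FGF2, against 4.27, 10.4 and 3.14 in control (5.43 ± 0.58, adjusted p = 2.9e-07), and its partner CHRNB4 was at 0 in control and at least 74.1-fold higher with FGF2.

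Axon guidance genes fell more often than they rose. Of 53 axon guidance ligands and receptors, 10 were higher (18.9%, against 15.5% of all genes) and 19 lower (35.8%, against 14.3%). SEMA3E (ENSGALG00000038225), a secreted semaphorin, read 3249, 2385 and 2835 with FGF2, against 261, 197 and 225 in control (3.62 ± 0.29, limma adjusted p = 3.9e-09). The netrin NTN1 (ENSGALG00000023626) read 1071, 1364 and 891 with FGF2, against 207, 308 and 315 in control (2.00 ± 0.23, adjusted p = 6.3e-07). SLIT2 (ENSGALG00000041121) read 7564, 6793 and 7748 with FGF2, against 4254, 3546 and 4066 in control (0.90 ± 0.09, adjusted p = 5.8e-08). These secreted ligands were higher in every FGF2 library. The semaphorin receptor PLXNA4 (ENSGALG00000006473) read 23.5, 70.7 and 54.2 with FGF2, against 320.2, 553 and 613 in control (-3.38 ± 0.32, adjusted p = 6.9e-08). The membrane semaphorin SEMA6D (ENSGALG00000030542) read 1402, 1979 and 1264 with FGF2, against 4253, 5625 and 5323 in control (-1.73 ± 0.18, adjusted p = 2.7e-07), and the SLIT receptor ROBO1 fell by 0.92 ± 0.11 on the log2 scale (adjusted p = 1.4e-06).

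WNT pathway genes moved both ways, with 11 of 51 higher and 16 lower. FRZB (ENSGALG00000002763), a secreted WNT antagonist, read 6797, 6262 and 5633 with FGF2, against 2124, 1950.3 and 1754 in control (1.68 ± 0.10, limma adjusted p = 6e-11). LGR5 (ENSGALG00000010163), a receptor that strengthens WNT signals, read 2432, 2603 and 2651 with FGF2, against 866, 736 and 745 in control (1.71 ± 0.13, adjusted p = 2.8e-09). The receptor FZD6 (ENSGALG00000030626) read 2029, 2347 and 2259 with FGF2, against 4746, 4842 and 5701 in control (-1.20 ± 0.09, adjusted p = 9e-10). FRZB and LGR5 were higher and FZD6 lower in every FGF2 library, and the receptors FZD4 and FZD7 rose by 1.13 ± 0.10 and 1.04 ± 0.09 on the log2 scale (adjusted p = 2.5e-08 and 1.6e-08).

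The WNT genes were then counted by role, a grouping chosen after their values were seen. Of 8 secreted antagonists of the FRZB, SFRP, DKK and WIF1 families tested, 6 were higher and 2 did not pass, with a median of 1.5. Of 11 WNT ligands, 6 were lower and 1 was higher, with a median of -1.28. DKK1, which blocks the WNT co-receptors, read 912, 1218 and 1938 with FGF2, against 245, 118 and 267 in control (2.699 ± 0.44, limma adjusted p = 5.6e-05). SFRP1, which binds WNT proteins, read 32730.2, 34823 and 29446 with FGF2, against 9762, 8664 and 8126 in control (1.87 ± 0.22, adjusted p = 1.5e-06). The ligand WNT9A read 42.7, 60.1 and 58.9 with FGF2, against 238, 393 and 321 in control (-2.52 ± 0.27, adjusted p = 2.5e-07). Both antagonists were higher and the ligand lower in every FGF2 library. WNT7A was the ligand that rose (2.499 ± 0.46, adjusted p = 0.00021). AXIN2 and SP5, which WNT signalling through beta-catenin switches on, were also named after their values were seen. They fell by 0.96 ± 0.10 and 2.00 ± 0.36 on the log2 scale (adjusted p = 2.1e-07 and 0.00016). Whether WNT signalling itself changed was not tested.

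BMP ligands and their antagonists changed in both directions. Of 53 BMP and TGF-beta genes, 17 were higher and 21 lower. The ligand BMP6 (ENSGALG00000012787) read 154, 191 and 162 with FGF2, against 1389.5, 1581 and 1830.1 in control (-3.23 ± 0.17, limma adjusted p = 1.9e-11). BMP7 (ENSGALG00000007668), which is needed for eye formation, read 1287, 1493 and 1390.0 with FGF2, against 4807, 4674 and 4605 in control (-1.76 ± 0.12, adjusted p = 3.1e-10). BAMBI (ENSGALG00000040993), a decoy receptor that BMP signalling induces, read 1822, 1875 and 2039 with FGF2, against 6779, 7519 and 7639 in control (-1.93 ± 0.11, adjusted p = 4.4e-11). All 3 were lower in every FGF2 library. Follistatin, FST (ENSGALG00000014908), which traps activins and BMPs, read 974, 1064 and 956 with FGF2, against 121, 57.0 and 88.0 in control (3.54 ± 0.28, adjusted p = 3.4e-09). The ligand BMP4 (ENSGALG00000012429) read 1812, 2175 and 1799.9 with FGF2, against 1174, 1018 and 1124 in control (0.80 ± 0.17, adjusted p = 0.00074). FST and BMP4 were higher in every FGF2 library.

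In the hedgehog pathway, 5 of 18 genes were higher and 4 lower, with 3 higher and 3 lower without the first FGF2 replicate and 3 higher without the second. CDON (ENSGALG00000035419), a co-receptor that binds the ligand, read 10524, 9590.5 and 8482 with FGF2, against 1658, 1853 and 1791 in control (2.43 ± 0.12, limma adjusted p = 6e-12). HHIP (ENSGALG00000009948), a decoy that the pathway induces, read 0, 0 and 1.75 with FGF2, against 67.2, 58.1 and 109 in control and had 3 reads in all over the FGF2 libraries, a ratio of 0.0110 (95% interval 0.00225 to 0.0325) by the same method. CDON was higher and HHIP lower in every FGF2 library.

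Contractile genes fell more often than they rose. Of 36 YAP, TEAD and contractile genes, 2 were higher and 16 lower, with a median of -0.38. ACTA2 (ENSGALG00000006343), smooth muscle actin, read 1588, 2007 and 1925 with FGF2, against 9578, 8902 and 7768 in control (-2.25 ± 0.16, limma adjusted p = 9e-10). MYLK (ENSGALG00000011708), the kinase that activates myosin, read 2743, 2449.7 and 1867 with FGF2, against 7906, 7379 and 7951 in control (-1.74 ± 0.13, adjusted p = 2.2e-09). CCN3 (ENSGALG00000038364), a matrix signalling protein, read 2526, 2776 and 2503 with FGF2, against 8883, 9392 and 7767 in control (-1.74 ± 0.16, adjusted p = 3.9e-08). Each was lower in every FGF2 library. The non-muscle myosins MYH9 and MYH10 had -0.22 ± 0.10 and 0.09 ± 0.05 and did not pass. Of 28 mesenchyme markers, 19 were lower in the same libraries, and of 18 muscle markers 6 were lower and 3 higher. The part of both lists in this result was not tested.

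Genes of cell division rose almost without exception. Of 64 genes of mitosis, kinetochore and spindle, 63 were higher, with a median log2 fold change of 1.02. CDC25B (0.06 ± 0.11, limma adjusted p = 0.74) was the member that did not pass. SPC25 (ENSGALG00000010900), a kinetochore protein, read 3566, 3150.5 and 3395 with FGF2, against 1399, 1556 and 1514 in control (1.18 ± 0.13, adjusted p = 6.8e-07). ECT2 (ENSGALG00000009157), which starts cytokinesis, read 3517, 2727 and 2628 with FGF2, against 918, 1072 and 1256 in control (1.45 ± 0.18, adjusted p = 2.4e-06). ESPL1 (ENSGALG00000041923), separase, which cuts sister chromatids apart, read 2713, 2549 and 2224 with FGF2, against 1001, 1185 and 1282 in control (1.11 ± 0.13, adjusted p = 1.7e-06). All 3 were higher in every FGF2 library.

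Of 52 DNA replication and nucleotide supply genes, 43 were higher and 9 did not pass, with a median of 0.63. Thymidine kinase TK1 (ENSGALG00000007191) read 5199, 4660.4 and 4193 with FGF2, against 1626, 1738 and 1888 in control (1.42 ± 0.17, limma adjusted p = 1.4e-06). The ribonucleotide reductase subunit RRM2 (ENSGALG00000016442) read 9509, 7467 and 7012 with FGF2, against 2906, 2807 and 3776 in control (1.338 ± 0.19, adjusted p = 8.5e-06). Both enzymes were higher in every FGF2 library. In the G1 list, 11 of 28 were higher and 3 lower, with CCNE2, cyclin E2, at 1.204 ± 0.18 and E2F1, which switches on replication genes, at 0.75 ± 0.12 (adjusted p = 3.1e-05 or less). CCND1, the cyclin that growth factors induce, rose by 0.47 ± 0.11 (adjusted p = 0.0033), and CCND2 and RB1 did not pass.

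Genes that slow division fell more often than they rose. Of 31 cell cycle inhibitors and p53 targets, 13 were lower. The kinase inhibitor CDKN2B, named after its value was seen, was the 1 member that rose, reading 52.3, 120.1 and 143 with FGF2, against 6.40, 0 and 27.2 in control (4.04 ± 0.91, limma adjusted p = 0.0017, and 2.75 without the second control replicate). SESN3 (ENSGALG00000017204), a sestrin that restrains growth signalling, read 320.1, 486 and 300.3 with FGF2, against 1149, 1067 and 1082 in control (-1.61 ± 0.20, limma adjusted p = 2.1e-06). CCNG1 (ENSGALG00000001718), cyclin G1, read 9946, 9161 and 10141 with FGF2, against 15733, 14441 and 13149 in control (-0.56 ± 0.06, adjusted p = 6.3e-07), and BTG1, an antiproliferative protein, fell by 0.46 ± 0.08 on the log2 scale (adjusted p = 0.00011). All 3 were lower in every FGF2 library.

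**Figure D3:**
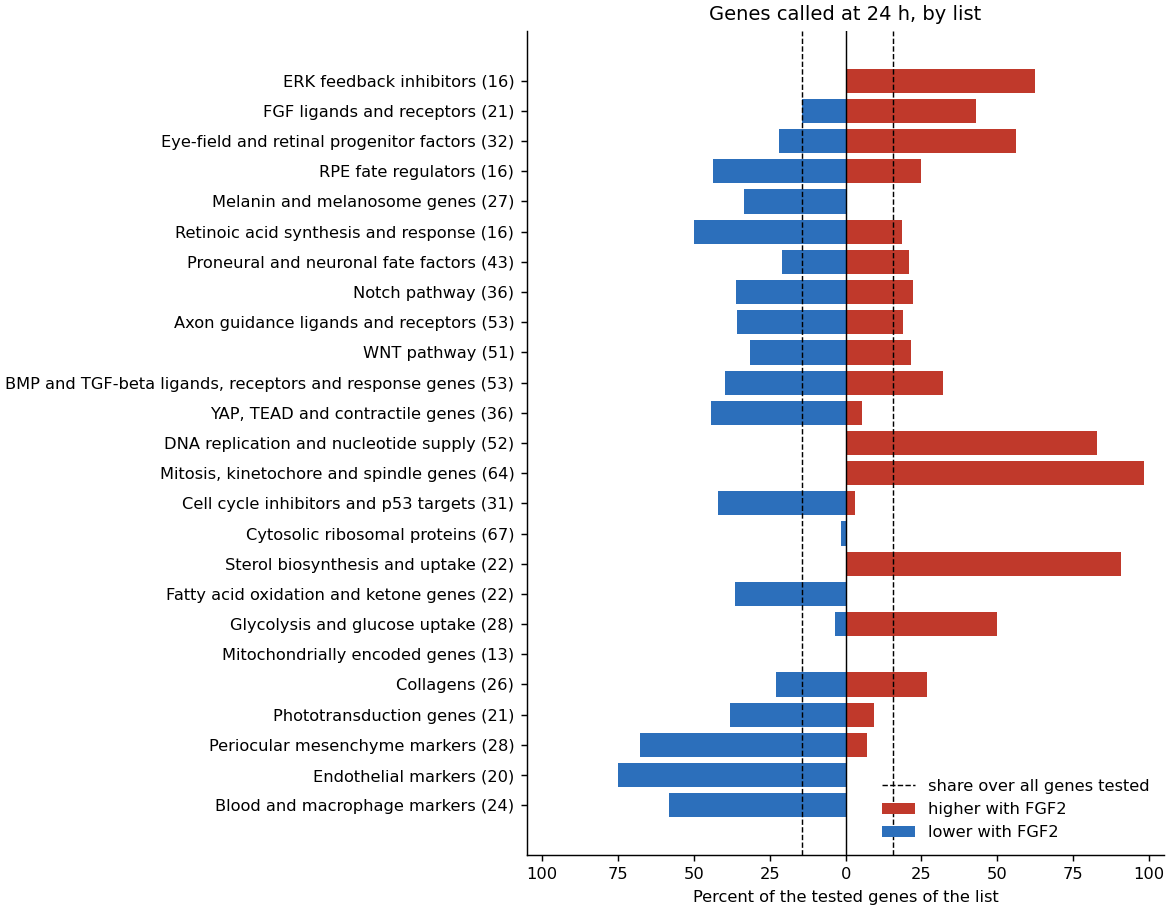
Bars give, for each gene list, the percent of its tested genes called higher with FGF2 (red, to the right) and lower (blue, to the left), with the number tested beside the name and dashed lines at the shares over all 15001 genes (15.5% higher, 14.3% lower). Mitosis, sterol and replication lists reach far past the line for higher, and endothelial and mesenchyme markers far past the line for lower.

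Ribosome biogenesis genes were called higher about as often as all genes, and few genes of ribosomal proteins were called. Of 79 ribosome biogenesis genes, 14 were higher and the others did not pass, a share of 17.7% against 15.5% of all genes. Without the first FGF2 replicate 5 were higher, 8 without the third, and 7 and 6 without the second and the third control replicate. Of 67 cytosolic ribosomal protein genes, RPLP0 was lower and the others did not pass, with a median of -0.02 and log2 fold changes between -0.20 and 0.30. Quantile normalization called 11 of the 67 lower. Without the first control replicate 2 ribosomal protein genes were higher, and without the third 2 were lower. Chaperones had 16 of 53 higher and 3 lower. HSPA5 (ENSGALG00000001000), the main chaperone of the endoplasmic reticulum, read 40101, 35997 and 39310.2 with FGF2, against 29870.2, 28294 and 27624 in control (0.43 ± 0.06, limma adjusted p = 6.8e-06). The disulfide isomerase PDIA3 (ENSGALG00000008348) read 37919, 35576 and 37553 with FGF2, against 27669.6, 27013 and 27569 in control (0.43 ± 0.05, adjusted p = 1.3e-06). The rise of both genes was small and still larger than the spread between replicates.

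Genes of embryonic and stem-like states had 12 of 20 higher and 2 lower, and 7 higher without the first FGF2 replicate. HMGA1 (ENSGALG00000030396), a chromatin protein of growing cells, read 4413, 4276 and 4506 with FGF2, against 2498, 2145 and 2329.8 in control (0.92 ± 0.08, limma adjusted p = 1.3e-08). SALL1 (ENSGALG00000039238), a zinc finger factor, read 761, 698 and 630.3 with FGF2, against 2514, 3302 and 3354 in control (-2.12 ± 0.16, adjusted p = 1.8e-09), and SALL3 fell by 1.85 ± 0.34 on the log2 scale (adjusted p = 0.0002). LIN28B, an RNA-binding protein that blocks let-7 maturation, read 249, 197 and 223 with FGF2, against 165, 92.3 and 119 in control (0.85 ± 0.26, adjusted p = 0.015), and MYC read 1464, 1146 and 1531 with FGF2, against 954, 924 and 1045 in control (0.49 ± 0.17, adjusted p = 0.030). The call of LIN28B was lost without the second control or the first FGF2 replicate (adjusted p = 0.096 and 0.066), and that of MYC without the first or the second control replicate and without the first or the third FGF2 replicate (adjusted p = 0.072 to 0.12). HMGA1 was higher and the SALL genes lower in every FGF2 library.

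Sterol genes rose almost without exception. Of 22 tested, 20 were higher with a median of 0.70, and SCAP and PMVK did not pass. FDFT1 (ENSGALG00000016665), squalene synthase, read 8789.6, 7929 and 6972 with FGF2, against 4043, 3064 and 2749 in control (1.28 ± 0.16, limma adjusted p = 3.3e-06). SQLE (ENSGALG00000036915), squalene epoxidase, read 6369, 5301 and 5127 with FGF2, against 2990.3, 2418 and 2168 in control (1.15 ± 0.13, adjusted p = 4.7e-07). Every FGF2 library stood above every control library for both enzymes. Fatty acid synthesis had 13 of 32 higher and 3 lower. FABP7 (ENSGALG00000038933), a fatty acid carrier of neural progenitors and glia, read 63378, 48129 and 46486 with FGF2, against 5877, 6960.4 and 4914 in control (3.15 ± 0.17, adjusted p = 2e-11). The desaturase SCD (ENSGALG00000005739) read 11266, 9993 and 9387 with FGF2, against 4806, 3323 and 3263 in control (1.45 ± 0.14, adjusted p = 5.2e-08). Fatty acid oxidation moved the other way, with 8 of 22 genes lower and the others not passing. CPT1A (ENSGALG00000007077), which admits fatty acids into mitochondria, read 949, 1217 and 1268 with FGF2, against 1927, 1876 and 2180.0 in control (-0.81 ± 0.12, adjusted p = 1.9e-05), and ACAA1, a peroxisomal thiolase, fell by 0.89 ± 0.08 (adjusted p = 1.5e-08).

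Many glycolysis genes rose, and most genes around pyruvate dehydrogenase did not pass the test. Of 28 glycolysis and glucose uptake genes, 14 were higher with a median of 0.29. PFKFB2, named after its value was seen, was the 1 member that fell (-0.47 ± 0.11, limma adjusted p = 0.0019). PFKL (ENSGALG00000006543), a phosphofructokinase, read 7692, 7547 and 7581 with FGF2, against 4848, 4393 and 4231 in control (0.76 ± 0.07, adjusted p = 4.5e-08). GAPDH (ENSGALG00000014442) read 149587, 133666 and 148702 with FGF2, against 92608, 84032 and 86641 in control (0.71 ± 0.07, adjusted p = 7.1e-08). PGAM1, a phosphoglycerate mutase, rose by 0.57 ± 0.06 (adjusted p = 4e-07). Of 13 genes of pyruvate dehydrogenase and its regulators, 1 was called. That gene was MPC2 (ENSGALG00000015437), a subunit of the carrier that brings pyruvate into mitochondria, with 2658, 2531 and 2618 with FGF2, against 1939, 1788 and 1766 in control (0.51 ± 0.09, adjusted p = 0.00013). The kinases PDK1, PDK2, PDK3 and PDK4, the targets of DCA, had log2 fold changes of -0.29 ± 0.12, 0.11 ± 0.11, -0.18 ± 0.10 and -0.27 ± 0.14, none of which passed (adjusted p = 0.085, 0.49, 0.22 and 0.18).

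The pentose phosphate, serine and one-carbon list had 10 of 27 higher and 3 lower. TKT (ENSGALG00000005309), transketolase, read 24273, 20541 and 22597 with FGF2, against 14669, 12072 and 12921 in control (0.77 ± 0.08, limma adjusted p = 1.7e-07). SHMT1 (ENSGALG00000005046), which feeds one-carbon units to thymidylate, read 495, 400.4 and 429 with FGF2, against 129, 174 and 222 in control (1.36 ± 0.18, adjusted p = 4.2e-06), and PSPH, the last step of serine synthesis, fell by 1.000 ± 0.17 on the log2 scale (adjusted p = 7.8e-05). TKT and SHMT1 were higher and PSPH lower in every FGF2 library. The citric acid cycle list was even, 5 higher and 5 lower of 24, and 3 lower without the first control replicate. These shares of 20.8% each compare with 15.5% higher and 14.3% lower over all genes. Glutamine synthetase GLUL (ENSGALG00000043754) read 3263, 4967 and 4666 with FGF2, against 8303, 8181 and 7127 in control (-0.89 ± 0.18, adjusted p = 0.00053). Of 13 mitochondrially encoded genes, 0 were called by the main limma fit, edgeR or DESeq2, and 0, 1 and 0 had an unadjusted p under 0.05 by these 3. With quantile normalization, limma called 2 of the 13 lower. Nuclear oxidative phosphorylation genes had 13 of 60 higher, a share of 21.7% against 15.5% of all genes. Between 5 and 21 were higher when 1 library was left out (21 without the first control replicate, 5 without the second or the third control replicate, 8 without the first or the third FGF2 replicate).

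In the hypoxia list, 7 of 21 were higher and 5 lower, and its members went opposite ways. The prolyl hydroxylase P4HA2 (ENSGALG00000006677), which modifies collagen, read 1934, 1477 and 1765 with FGF2, against 854, 764 and 989 in control (0.99 ± 0.13, limma adjusted p = 3.6e-06). VEGFA (ENSGALG00000010290), the endothelial growth factor that the RPE secretes, read 2026, 2532 and 2016 with FGF2, against 4830.2, 3834 and 3550.2 in control (-0.89 ± 0.16, adjusted p = 0.00015), and HIF1A, the oxygen-regulated factor, fell by 0.48 ± 0.07 (adjusted p = 2.3e-05). P4HA2 was higher and VEGFA lower in every FGF2 library. Beside the fall of VEGFA, 15 of 20 endothelial markers were lower, their summed level was 34375 to 43987 with FGF2 against 60878 to 71039.8 in control, and their part in it was not tested.

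Collagen genes moved both ways. Of 26 tested, 7 were higher (26.9%, against 15.5% of all genes) and 6 lower (23.1%, against 14.3%). The other 13 did not pass, and the median was -0.05. COL2A1 (ENSGALG00000030712), the collagen of vitreous and cartilage, read 143381, 154028 and 138487 with FGF2, against 39004, 37266 and 35138 in control (1.97 ± 0.11, limma adjusted p = 4.5e-11). COL9A3 (ENSGALG00000005628), a chain of type IX collagen that coats its fibrils, read 20325, 23972 and 20554 with FGF2, against 1799, 1861 and 1413 in control (3.68 ± 0.24, adjusted p = 2.5e-10). The other type IX chains COL9A1 and COL9A2 rose by 0.88 ± 0.10 and 1.89 ± 0.13 on the log2 scale (adjusted p = 1.3e-06 and 6.6e-10). All chains of types II and IX that were tested were thus higher. COL12A1 (ENSGALG00000015908), of tendon and dense tissue, read 2188, 2655 and 2666 with FGF2, against 5191, 6033 and 5712 in control (-1.18 ± 0.10, adjusted p = 1.8e-08), and COL1A2, COL5A2 and COL18A1 did not pass.

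Among 47 lysyl oxidases and matrix glycoproteins, 9 were higher and 17 lower (19.1% and 36.2%, against 15.5% and 14.3% of all genes). The cartilage proteoglycan aggrecan, ACAN (ENSGALG00000006725), read 1569.5, 1797 and 1285 with FGF2, against 45.9, 45.6 and 36.7 in control (5.14 ± 1.23, limma adjusted p = 0.0027). Matrilin 4, MATN4 (ENSGALG00000004028), read 6996, 7201 and 7572 with FGF2, against 659.5, 532 and 261 in control (4.01 ± 0.50, adjusted p = 2.3e-06). For both, every FGF2 library lay far above every control library. Lumican, LUM (ENSGALG00000011271), a small proteoglycan of cornea and sclera, read 1274, 1392 and 1359.7 with FGF2, against 6049, 8396 and 7960.4 in control (-2.46 ± 0.27, adjusted p = 4e-07). Keratocan, KERA (ENSGALG00000011270), a proteoglycan of the cornea, read 1206, 1272 and 953 with FGF2, against 4741, 5593 and 5551 in control (-2.22 ± 0.21, adjusted p = 6.3e-08). LOX (ENSGALG00000028063), which cross-links collagen and elastin, read 109, 117 and 137 with FGF2, against 546, 675 and 503 in control (-2.24 ± 0.16, adjusted p = 8.2e-10). Lumican, keratocan and LOX were lower in every FGF2 library. LUM and KERA are also among the 28 mesenchyme markers, whose summed level was 92170.0 to 122032 with FGF2 against 167837 to 181676 in control.

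Integrin and laminin genes, counted together, rose more often than they fell, with 12 of 29 higher and 6 lower and a median of 0.09. Without the first FGF2 replicate 3 were lower, and 8 were higher without the second control or the third FGF2 replicate. ITGA4 (ENSGALG00000041577), a receptor for fibronectin, read 20916, 18929 and 22717 with FGF2, against 2770.5, 3091 and 2718 in control (2.86 ± 0.18, limma adjusted p = 1.7e-10). ITGA2 (ENSGALG00000014903), a receptor for collagen, read 958, 1040.0 and 959 with FGF2, against 268, 195 and 261 in control (2.04 ± 0.24, adjusted p = 1.5e-06). The basement membrane proteoglycan HSPG2, perlecan, rose by 0.62 ± 0.07 on the log2 scale (adjusted p = 1.5e-06), and the laminin chains LAMA1 and LAMB1 did not pass. Matrix proteases and inhibitors had 8 higher and 16 lower of 46 (17.4% and 34.8%, against 15.5% and 14.3% of all genes). SERPINE2 (ENSGALG00000005135), a protease inhibitor, read 12472, 13792 and 12994 with FGF2, against 4518, 4586 and 4281 in control (1.55 ± 0.12, adjusted p = 3.2e-09). MMP15 (ENSGALG00000038758), a membrane metalloprotease, read 28468, 28738 and 26822 with FGF2, against 15049, 15281 and 14667 in control (0.90 ± 0.05, adjusted p = 4e-11).

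Cadherin genes moved both ways, as did the mixed list of junction and polarity genes. Of 36 cadherin genes, 11 were higher and 13 lower. N-cadherin, CDH2 (ENSGALG00000015132), read 22158, 18079 and 20069 with FGF2, against 13099, 11349 and 11921 in control (0.73 ± 0.12, limma adjusted p = 4.3e-05). CDH11 (ENSGALG00000039985), a cadherin of mesenchyme, read 12518, 12984 and 11520.0 with FGF2, against 21495, 24379.5 and 24240.5 in control (-0.92 ± 0.08, adjusted p = 1.4e-08), and E-cadherin, CDH1, read 320.1, 378 and 339.9 with FGF2, against 431, 234 and 264 in control and did not pass (0.21 ± 0.23, adjusted p = 0.56). Of 40 tight junction, polarity and gap junction genes, 9 were higher and 14 lower. GJD2 (ENSGALG00000009845), the connexin of electrical synapses, read 594, 987 and 745 with FGF2, against 5687, 7846 and 8864 in control (-3.27 ± 0.24, adjusted p = 1.2e-09). The connexin GJA1 (ENSGALG00000014873) read 44071, 44293 and 50682 with FGF2, against 107896, 108217 and 122943 in control (-1.29 ± 0.14, adjusted p = 5.6e-07). GJA5 (ENSGALG00000039452), a connexin also found in arteries, read 1191, 1784 and 1241 with FGF2, against 4171, 4803 and 6659 in control (-1.89 ± 0.21, adjusted p = 6e-07). All 3 connexins were lower in every FGF2 library. CRB2 (ENSGALG00000001169), a polarity protein of the retinal apical surface, and JAM3 (ENSGALG00000001472), a junctional adhesion molecule, rose by 1.15 ± 0.10 and 1.24 ± 0.07 (adjusted p = 1.1e-08 and 4e-11).

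Channels and pumps of epithelium moved both ways, with 12 of 64 higher and 17 lower. These shares of 18.8% and 26.6% compare with 15.5% higher and 14.3% lower over all genes. The inward rectifier potassium channel KCNJ5 (ENSGALG00000001181) read 2023, 2440.3 and 2449 with FGF2, against 305, 307 and 230.5 in control (3.04 ± 0.18, limma adjusted p = 7.1e-11). KCNJ5 was higher in every FGF2 library. The water and glycerol channel AQP3 (ENSGALG00000002452) read 313, 236 and 378 with FGF2, against 8.54, 13.5 and 26.2 in control (4.29 ± 0.44, adjusted p = 2.1e-07). SLC4A4 (ENSGALG00000031105), a bicarbonate transporter of the RPE, read 386, 631 and 515 with FGF2, against 1439, 1761 and 1918 in control (-1.76 ± 0.15, adjusted p = 9.1e-09).

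Phototransduction genes fell more often than they rose. Of 21 tested, 2 were higher and 8 lower with a median of -0.47, and 1 was higher without the first control, the first FGF2 or the third FGF2 replicate. The cone transducin subunit GNGT2 (ENSGALG00000031205) read 378, 650.1 and 410.5 with FGF2, against 4667, 4909 and 3309 in control (-3.18 ± 0.21, limma adjusted p = 4.1e-10). TPH1 (ENSGALG00000006236), the first enzyme on the path to melatonin, was tested with the clock genes and read 138, 198 and 119.5 with FGF2, against 704, 930.1 and 1256 in control (-2.65 ± 0.28, adjusted p = 3.3e-07). Both were lower in every FGF2 library. Of 26 clock genes, 5 were higher and 5 lower (19.2% each, against 15.5% and 14.3% of all genes), with 3 higher without the first control replicate. Among them ARNTL2 rose by 0.71 ± 0.10 and CLOCK fell by 1.24 ± 0.18 on the log2 scale (adjusted p = 6.2e-06 and 1.6e-05).

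Lysosomal genes, with 10 of 63 higher and 9 lower, were called about as often as all genes. LAPTM4B (ENSGALG00000045196), a lysosomal membrane protein, read 4269, 5400.0 and 5833 with FGF2, against 642, 653 and 873 in control (2.84 ± 0.14, limma adjusted p = 6e-12). It was higher in every FGF2 library, while PSAP, CTSB and TPP1 did not pass. Amino acid transporters also stayed near the share of all genes, with 4 of 28 higher and 5 lower, and 2 higher without the third control or the second FGF2 replicate. SLC7A3 (ENSGALG00000033002), a carrier of arginine and lysine, read 2950.2, 3858 and 3249 with FGF2, against 6736, 5987 and 6249 in control (-0.92 ± 0.09, adjusted p = 9.1e-08). The glycine transporter SLC6A9 (ENSGALG00000010098) read 8242, 9641 and 8253 with FGF2, against 4409.7, 4773 and 3948 in control (0.99 ± 0.11, adjusted p = 9.1e-07).

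The markers of mesenchyme, endothelium and blood named at the start fell more often than all genes did. Their median log2 fold changes were -1.04 for mesenchyme, -0.83 for endothelium and -0.69 for blood and macrophages, against -0.01 for all genes. TIE1 (ENSGALG00000009957), an endothelial receptor, read 1288, 1881 and 1277 with FGF2, against 3139, 4354 and 4178 in control (-1.40 ± 0.21, limma adjusted p = 2.8e-05). CSF1R (ENSGALG00000005725), the macrophage growth factor receptor, read 545, 725 and 749 with FGF2, against 1328, 1179.9 and 1530.5 in control (-1.005 ± 0.18, adjusted p = 0.00013). Both were lower in every FGF2 library. The summed level of blood and macrophage markers was 66987 to 94146 with FGF2 and 109346 to 145004 in control.

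Some genes shared by neural crest, glia and neural progenitors were higher. The list of 18 crest and melanocyte markers had 6 higher and 5 lower, and its summed level was 74309.9 to 85975 with FGF2 against 19337 to 23594 in control. FABP7, whose values are given above, held most of that sum with FGF2, and the median log2 fold change of the list was -0.03. ERBB3 (ENSGALG00000033510), a neuregulin receptor, read 1500.2, 1229.6 and 1867 with FGF2, against 89.6, 45.6 and 60.8 in control (4.56 ± 0.39, limma adjusted p = 1.1e-08). EDNRB (ENSGALG00000016912), an endothelin receptor, read 3689.6, 5150.3 and 4921 with FGF2, against 741, 919.7 and 681 in control (2.55 ± 0.24, adjusted p = 5.3e-08). Both were higher in every FGF2 library, while the crest factors TFAP2B (-1.65 ± 0.33, adjusted p = 0.00057) and ETS1 fell.

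The FGF2 effect was then read in groups that share no library with the comparison above. Their libraries were part of the same fit, where they counted towards the gene filter and the variance of each gene. The fold changes thus rest on separate libraries, but calls shared between the comparisons are not independent. With DCA in the medium, FGF2 changed 3749 genes (25.0%), 1952 higher (13.0%) and 1797 lower (12.0%). At 48 h it changed 8187 genes (54.6%), 4036 higher (26.9%) and 4151 lower (27.7%). Of the 2322 genes higher with FGF2 at 24 h, 1192 were also called higher by FGF2 with DCA (51.3% of the 2322 and 61.1% of the 1952 called there), and 10 were called lower. Of the 2144 lower, 1096 were called lower with DCA (51.1% and 61.0% of 1797), and 26 higher. At 48 h, 1527 of the 2322 were called higher (65.8%, and 37.8% of 4036) and 198 lower, and 1620 of the 2144 were called lower (75.6%, and 39.0% of 4151) and 77 higher. Over the 15001 genes the log2 fold changes at 24 h correlated with those under DCA at Pearson r = 0.60 and with those at 48 h at r = 0.60, across genes that are not independent replicates.

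**Figure D4:**
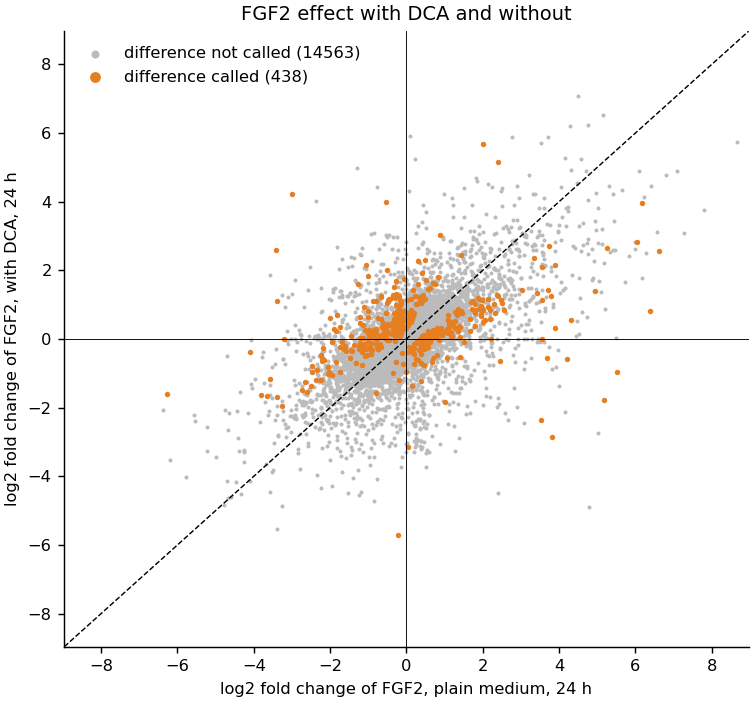
Each point is 1 of 15001 genes, with the log2 fold change of FGF2 at 24 h without DCA on the x axis and with DCA on the y axis, from libraries that are not shared. Orange points are the 438 genes whose effect differed between the media by limma, and the dashed line marks equal effects.

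The test of the difference between media called 438 genes (2.92%), 252 with a more positive FGF2 effect under DCA (1.68%) and 186 with a more negative one (1.24%). Without the third replicate of DCA with FGF2 it called 572, and the balance turned to 266 more positive and 306 more negative. That count was 238 without the first FGF2 replicate and 230 without the second replicate of DCA with FGF2. Division genes were among them. Of 64 mitosis genes 20 were higher and 1 lower with FGF2 under DCA, with a median of 0.35, and of 52 replication genes 7 were higher and 1 lower, with a median of 0.13. The difference itself was called in 9 of the mitosis and 9 of the replication genes, in each of them negative, and in the other members of both lists it was not called. Sterol genes had a median of 0.85 with DCA and 18 of 22 higher, and the difference was called in 0 of them by limma, edgeR or DESeq2, with an unadjusted p under 0.05 for 3, 4 and 4 genes by limma, edgeR and DESeq2. RRM1 is an example that was called, with 4042, 3404 and 5077 with DCA and FGF2, against 3539, 3683 and 3926 with DCA alone (0.15 ± 0.11, limma adjusted p = 0.35), where plain medium gave 0.91 ± 0.11 and the difference was -0.76 ± 0.15 (adjusted p = 0.0090).

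Several genes of other groups also differed by medium. COL2A1 read 89522, 79725 and 71592 with DCA and FGF2, against 35469, 39604 and 33808 with DCA alone (1.14 ± 0.11), with a difference of -0.83 ± 0.16 from plain medium (limma adjusted p = 0.0073). ETV4 differed by 1.12 ± 0.11 (log2) with DCA against 1.74 ± 0.11 without (difference -0.63 ± 0.16, adjusted p = 0.035). DUSP4 (ENSGALG00000011419), an ERK phosphatase, had 0.84 ± 0.12 against 2.00 ± 0.12 without (difference -1.16 ± 0.17, adjusted p = 0.00075). LUM (-0.97 ± 0.27) and ACTA2 (-1.19 ± 0.16) fell less far with DCA (differences 1.49 ± 0.38 and 1.06 ± 0.23, adjusted p = 0.034 and 0.012). In these 5 genes the change kept its direction and was smaller in size. Genes named for their change in plain medium are more likely to show a smaller one elsewhere. SIX6 read 14371, 14423 and 16634 with DCA and FGF2, against 1577, 2062 and 2218 with DCA alone (2.97 ± 0.13), where plain medium gave 3.42. Its difference of -0.46 ± 0.18 was also towards a smaller effect and did not pass (adjusted p = 0.18).

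**Figure D5:**
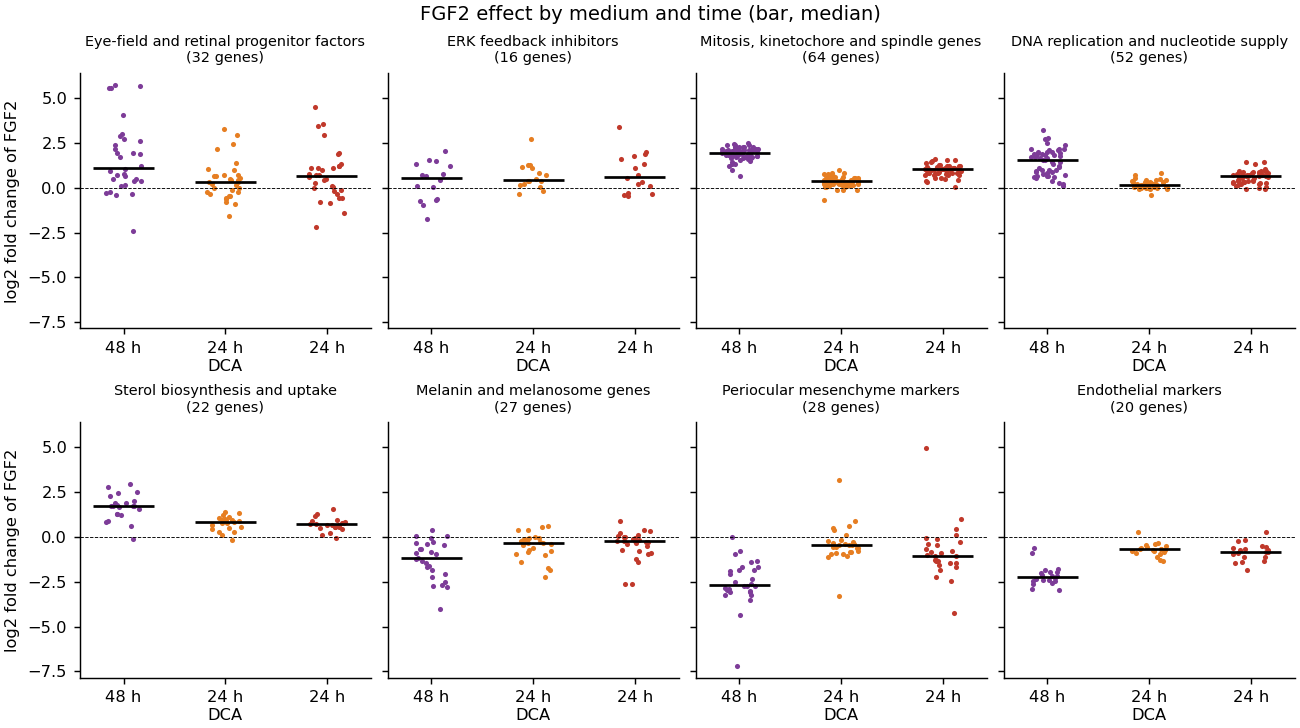
For 8 gene lists, each point is the log2 fold change of FGF2 for 1 gene, at 48 h in plain medium, at 24 h with DCA and at 24 h in plain medium, with a bar at the median. Mitosis and replication genes lie highest at 48 h and lowest with DCA, and mesenchyme and endothelial markers fall furthest at 48 h.

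The effect of FGF2 at 48 h differed from that at 24 h for 4524 genes (30.2%), 2208 towards higher (14.7%) and 2316 towards lower (15.4%). SOX2, a factor of neural progenitors, read 3217, 2848 and 2883 with FGF2, against 58.6, 73.9 and 55.3 in control at 48 h and 953, 619.5 and 482 with FGF2, against 99.3, 65.3 and 92.2 in control at 24 h. Its log2 fold change was 5.56 ± 0.26 at 48 h and 2.95 ± 0.26 at 24 h (difference 2.61 ± 0.36, limma adjusted p = 1.5e-05). PMEL, whose groups overlapped at 24 h, read 21351, 18059.8 and 14862 with FGF2, against 72838, 81446 and 72467 in control at 48 h (-2.08 ± 0.18, difference -2.08 ± 0.25, adjusted p = 3.4e-06). PMEL was thus lower in every FGF2 library at 48 h. Of the 27 melanin and melanosome genes, 21 were lower and 1 higher at 48 h, where 9 were lower at 24 h. The difference was called in 17 of them, towards lower.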

How the data were processed

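Gene expression was measured by directional mRNA sequencing of 24 libraries, made from 100 ng of total RNA with 13 PCR cycles per the labels' protocols. The values are a signal, read counts normalized by size factors, in 1 table that the authors deposited. Per the submitters' processing notes the tools were Trim Galore 0.6.4, STAR 2.7.5b, StringTie 2.1.4 and DESeq2 1.34.0 with genome GRCg6a. How reads were assigned to strands and to overlapping or duplicated genes is not given in the sources used here, so values of paralogs and of antisense pairs are uncertain.

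Genes averaging 10 or more across all 24 libraries entered limma 3.58.1 (R 4.3.3) on log2(normalized count + 1), with 8 group means, 16 residual degrees of freedom, a trended prior and Benjamini-Hochberg adjustment over all 15001 genes, and calls were made at 0.05. Such fold changes understate the change of genes with low counts. Errors marked ± on log2 values are standard errors of that fit. The low values of 22 columns were whole multiples of 1 read (100.0% within 0.001 of a whole read), and edgeR 4.0.16 and DESeq2 1.42.0 were run on the recovered reads as alternatives. The columns of 1 control library at 48 h and 1 library with DCA at 48 h gave no such step and were left out there. Only the limma fit was tested on simulated data, with the same dispersion for every gene, which does not cover edgeR or DESeq2.

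The members and the gene lists were chosen with earlier results of these data known. The genes named were the 15 largest changes in each direction without overlap and averaging 100 or more, up to 6 members per list with the smallest adjusted p and 3 of the highest level that did not pass, any member of a list of 15 or fewer, a set of eye and FGF genes, and called genes at 0 in 1 group. Other genes are marked where they appear, and some genes that meet the rule are not reported here. Replicates are biological, as the labels state, and groups were taken from the labels. The alternatives were other pseudocounts (0.5 and 5), filters, scalings and tools, a replicate block, a fit of the compared libraries alone and each library left out.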

Additional observations from a re-analysis of the deposited data

Results flagged for a closer look

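The effect of FGF2 at 24 h differed with the medium for 438 genes (limma adjusted p under 0.05 for the difference with DCA minus without). The search covered 196 of the genes named in the report. Those among the 438 are listed here with that difference on the log2 scale. Most were named for their effect in plain medium, which the difference subtracts, so the choice of genes favours a smaller effect with DCA. Of 177 genes called higher in plain medium and called for the difference, 161 had a less positive effect with DCA. Of 161 called lower, 158 had a less negative one. Among genes that rose with FGF2 in plain medium, these signalling genes had a less positive effect with DCA: DUSP4 -1.16 ± 0.17, ETV4 -0.63 ± 0.16, FGFR1 -0.57 ± 0.09, FRZB -0.60 ± 0.14, FZD4 -0.78 ± 0.14 and FST -1.44 ± 0.39. The fate factors FOXN4 (-1.71 ± 0.44) and VAX1 (-1.11 ± 0.21), the division genes ESPL1 (-0.93 ± 0.19) and RRM1 (-0.76 ± 0.15) and the one-carbon enzyme SHMT1 (-1.14 ± 0.25) did so too, as did COL2A1 (-0.83 ± 0.16), KCNJ5 (-1.61 ± 0.26) and NINJ2 (-2.62 ± 0.45). For genes at 0 in every control library the fitted difference depends on the pseudocount, and it was -4.78 ± 1.06 for FGF9, -6.50 ± 1.48 for HMX3, -4.07 ± 0.88 for SHC3 and -5.56 ± 1.27 for LYPD6.

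Among genes that fell with FGF2 in plain medium, the effect was less negative with DCA for the matrix and contractile genes LOX (1.76 ± 0.22), KERA (1.66 ± 0.30), LUM (1.49 ± 0.38), COL12A1 (0.87 ± 0.15), CDH11 (0.47 ± 0.11), ACTA2 (1.06 ± 0.23) and MYLK (0.78 ± 0.19). It was also less negative for OTX2 (0.41 ± 0.11), BHLHE40 (1.19 ± 0.21), CLOCK (1.03 ± 0.26), JUN (0.71 ± 0.16), SOCS3 (1.25 ± 0.33), PSPH (1.16 ± 0.24) and SLC7A3 (0.60 ± 0.13), and for the neuronal genes GJD2 (1.33 ± 0.34), PLXNA4 (1.70 ± 0.46) and ROBO1 (0.80 ± 0.15). The ligands BMP4 and DLL1 rose with FGF2 in plain medium and had log2 fold changes of -0.46 ± 0.17 (adjusted p = 0.045) and -0.67 ± 0.18 (adjusted p = 0.0079) with DCA, differences of -1.26 ± 0.23 and -1.33 ± 0.25.

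The effect at 48 h differed from that at 24 h for 4524 genes, among them 110 of the 196 named genes that were checked. Of these 110, 5 were called in opposite directions at the 2 times. MITF, NTN1, BMP4, SERPINE2 and the clock gene ARNTL2 rose at 24 h and fell at 48 h. Their differences on the log2 scale, 48 h minus 24 h, were -0.94 ± 0.17, -3.73 ± 0.32, -1.68 ± 0.23, -2.18 ± 0.17 and -1.02 ± 0.14 in that order. The call of MITF at 24 h was lost without any 1 of 4 of the 6 libraries. SOX2 (difference 2.61 ± 0.36) and PMEL (difference -2.08 ± 0.25), described with their values at both times, differed as well.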

How the results depend on the processing

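The checks of single genes covered 196 of the genes named in the text and not the others. Each called gene of these 196 kept its direction in every alternative that tested it, and 12 of the 196 were not tested with the filter at a mean of 100. The count of 4466 genes at 24 h was 4184 to 4665 under the other pseudocounts, filters, scalings and tools and in a fit of the 6 libraries alone, and a required change above 1.5-fold left 919. That requirement, which is stricter by construction, left 501 genes with DCA, 2612 at 48 h, 12 for the difference with DCA and 595 for the difference between times. For the difference with DCA, DESeq2 called 800 genes against 438, and the cause was not tested. Leaving out 1 library gave 3479 to 4061 genes at 24 h, 2951 to 3432 with DCA, 7404 to 7621 at 48 h, 230 to 572 for the difference with DCA and 3819 to 4371 for the difference between times, and 2908 of the 4466 genes were called in all 6 such fits at 24 h. With the replicate number as a block the counts were 4434 at 24 h, 3700 with DCA, 8162 at 48 h, 409 for the difference with DCA and 4465 between times. The pairing check took, for each library, the deviations of its log2 levels from the mean of its group. These deviations correlated at 0.0167, 0.0474 and 0.0508 between same-numbered FGF2 and control libraries, none above 0.1. At 24 h without DCA, the deviations of each FGF2 library correlated best with those of the control library of its own number. At 48 h none did, as FGF2 libraries 1, 2 and 3 correlated best with control libraries 2, 3 and 1 (0.0498, 0.0648 and 0.0186). With DCA, FGF2 library 2 correlated best with DCA library 3 (0.0584, against 0.00997 with its own number). A pairing by number was thus not seen across the comparisons, and the design does not state one. The report treats the libraries as unpaired. Of the 196 named genes checked, 175 were called and 171 of them stayed called whichever library was left out. Most were chosen for a small adjusted p or a large change in these same libraries, so that count is no further support. The required change above 1.5-fold took the call from 45 of them.

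With 3 libraries a group, small changes were not detectable for genes of low count, and a missed threshold does not show that a gene was unaffected. Upper-quartile scaling moved the median of all genes to -0.02 and the split of calls to 2185 higher and 2279 lower.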
